A study of Mus musculus with 4 samples.

Results

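The 36 genes described here belong to the NF-kB pathway: the subunits of the transcription factor, the inhibitors and kinases that control it, the adaptors and ubiquitin ligases that carry signals to the kinases, and feedback and survival genes that it switches on. The list was drawn up with earlier results of these data known. Its genes were taken by symbol from the 17187 gene columns of the deposited table, and all 36 had a column. They were measured in group 2 innate lymphoid cells (ILC2s), tissue lymphocytes that make type 2 cytokines. The cells were sorted from BALB/c mouse lungs and kept for 18 hours in culture with an anti-CD226 antibody (2 libraries) or an isotype control antibody (2 libraries). CD226 is a costimulatory receptor of lymphocytes, and the series' title speaks of blocking it. The protocol names 5 µg/mL, in words that leave open whether the isotype antibody was used at that concentration too. The design text speaks of mice given the antibodies, and the treatment column of the table calls the controls PBS; the sample labels were followed here. The labels are silent on whether duplicate libraries stem from different animals or cultures; every p-value below therefore reflects library-to-library variation that could be purely technical.

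NF-kB is a dimer of Rel-family proteins. In resting cells IkB proteins hold it in the cytoplasm. Receptors for cytokines, danger signals and antigen recruit TRAF adaptors and ubiquitin ligases, which activate the IkB kinase (IKK); IKK marks IkB for destruction, and the dimer enters the nucleus and binds short DNA sites called kB sites. Among the genes it switches on are its own inhibitors, so a pulse of activity tends to limit itself. In ILC2s the alarmin IL-33 signals through this route, and NF-kB is one of the factors that act on the genes of type 2 cytokines. Activity of the pathway is set largely by protein modification and movement, which transcript levels do not measure.

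The promoters of these genes were searched for kB sites. Of the 36 genes, 29 had an entry in the RefSeq promoter table (GRCm38.p6; 250 bases before to 50 bases after a transcription start), and 13 of the 29 (44.8%) held a match to the 10-base kB consensus on either strand. The same search found a match in 5.14% of the 27025 genes of the table and in 6.10% of its 9124 genes that were tested here. Nfkb1, Relb, Nfkbiz, Ikbkb, Map3k8, Malt1 and Cd83 were not among the 29. Matches stood in Nfkb2 and Rel among the subunits, in Nfkbia, Nfkbie, Nfkbid and Bcl3 among the IkB proteins, in Map3k7 among the kinases, in Traf3 and Bcl10 among the adaptors, in Tnfaip3, Tnip1 and Tnip3 among the feedback inhibitors, and in Bcl2l1. A match is a description of letters and not of binding. The windows of 30 bases below belong to the genes with matches on which the later values turn, with Nfkbia as the classical inhibitor; they run 5′ to 3′ on the gene's strand, and capitals mark the match, which is longer than 10 bases where matches overlap.
Rel, chr11:23771042-23771071, minus strand: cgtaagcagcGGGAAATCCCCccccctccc
Tnfaip3, chr10:19015516-19015545, minus strand: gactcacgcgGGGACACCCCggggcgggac
Bcl3, chr7:19822734-19822763, minus strand: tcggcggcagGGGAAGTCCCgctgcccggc
Nfkbie, chr17:45555584-45555613, plus strand: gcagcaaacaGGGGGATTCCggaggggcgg
Traf3, chr12:111166350-111166379, plus strand: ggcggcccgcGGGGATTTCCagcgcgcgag
Nfkbia, chr12:55492657-55492686, minus strand: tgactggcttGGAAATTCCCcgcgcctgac

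Rel and Tnfaip3, which encode a subunit and a feedback inhibitor, had the smallest unadjusted p-values of the 36 genes. Their 250 bases upstream of the start are shown whole, again with the kB matches in capitals. The matches of Rel overlap in a single place, while those of Tnfaip3 stand apart.
Rel promoter, chr11:23770970-23771219, minus strand: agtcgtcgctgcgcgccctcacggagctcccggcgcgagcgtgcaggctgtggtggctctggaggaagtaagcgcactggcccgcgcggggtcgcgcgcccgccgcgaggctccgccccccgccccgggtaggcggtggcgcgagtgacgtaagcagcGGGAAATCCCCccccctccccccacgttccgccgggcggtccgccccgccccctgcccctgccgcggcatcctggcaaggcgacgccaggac
Tnfaip3 promoter, chr10:19015411-19015660, minus strand: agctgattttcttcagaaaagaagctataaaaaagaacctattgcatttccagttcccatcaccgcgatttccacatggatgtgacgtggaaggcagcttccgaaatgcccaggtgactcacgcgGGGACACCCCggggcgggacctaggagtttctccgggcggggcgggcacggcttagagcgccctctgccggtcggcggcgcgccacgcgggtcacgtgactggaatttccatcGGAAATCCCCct

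Of the 27 NF-kB genes that were both in the promoter table and tested, the 12 with a match had a median log2 fold change, anti-CD226 over isotype, of 0.10 (9 higher), and the 15 without a match had 0.04 (10 higher). Rela and Chuk were in the table and held no match in their windows.

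The deposited table gives a normalised read count for each gene and library. Estimated depth was 13521418 and 12474191 reads in anti-CD226 libraries 1 and 2, and 12433715 and 17847326 reads in isotype libraries 1 and 2, and 3 reads, the limit that a count of 0 allows, were worth between 2.32 and 3.32 normalised reads. All 14 ILC2 identity markers had a column and a value above 0 in every library. They summed to 214149 and 203093 in anti-CD226 libraries and to 222278 and 225652 in isotype libraries, mostly from Il5 and Il2ra. Fold changes were above 0 in 7 of the 14 and below 0 in 7. Il13 had 2725 and 921 in anti-CD226 libraries and 2773 and 3419 in isotype libraries. Rora had 3928 and 4865 in anti-CD226 libraries and 3536 and 3386 in isotype libraries. Transcripts of macrophages also appeared: the 10 of 16 listed markers that have a column summed to 581 and 1882 in anti-CD226 libraries and to 303 and 292 in isotype libraries. Mrc1, Marco, C1qa, C1qb, Fcgr1 and Siglec1 had no column. Chil3 and Mmp12 made up most of the sum of anti-CD226 library 2, with 784 and 678. Lyz2 had 8.24 and 51.8 in anti-CD226 libraries and 3.32 and 0.77 in isotype libraries. Cd68 had 55.6 and 88.2 in anti-CD226 libraries and 35.4 and 38.6 in isotype libraries. Csf1r, which encodes a macrophage receptor, was at 2.62 or below in all 4 libraries. Ctss made up most of the sum in isotype libraries, with 190 and 230, and had 289 and 227 in anti-CD226 libraries. Adgre1 had 7.21 and 2.20 in anti-CD226 libraries and 2.21 and 7.73 in isotype libraries. Apoe had 11.3 and 13.2 in anti-CD226 libraries and 14.4 and 10.8 in isotype libraries. Of the 6 macrophage markers tested, 5 had a fold change above 0 and 1 below. Itgam and Mpeg1 were each between 4.12 and 19.6 in anti-CD226 libraries, and at 0 in isotype library 2. The markers of dendritic cells with a column, 9 of 13, summed to 1798 and 1852 in anti-CD226 libraries and to 2022 and 1806 in isotype libraries. Ccr7 alone gave 905 and 872 of it in anti-CD226 libraries and 1081 and 972 in isotype libraries. Itgax, which encodes the integrin CD11c, had 14.4 and 46.3 in anti-CD226 libraries and 1.11 and 0 in isotype libraries. Cd74 had 92.7 and 148 in anti-CD226 libraries and 99.5 and 78.8 in isotype libraries. The 8 of 10 mast cell and basophil markers with a column summed to 1034 and 1536 in anti-CD226 libraries and to 1167 and 980.5 in isotype libraries. The 7 of 10 T cell markers with a column summed to 3850 and 2802 in anti-CD226 libraries and to 3905 and 4526 in isotype libraries. The 1 of 6 endothelial markers with a column stood between 620 and 726. Markers of B cells, NK cells, neutrophils and eosinophils, epithelium and fibroblasts each summed to 310 or below in every library. In bulk RNA of this kind, fewer cells of a type and less RNA per cell cannot be told apart.

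The NF-kB genes did not move as a block. Of the 36, 33 had a mean of at least 10 and were tested; Tnip3, Bcl2a1b and Cd83 were below it. None of the 33 passed an adjusted p of 0.05 in limma, where the call rate over all genes was 0 (0 of 13010), and the smallest adjusted p was 0.982 among the 33 as among all genes. At an unadjusted limma p below 0.05 stood 1 member, Tnfaip3, beside 2.37% of all genes (308). The fold change was above 0 in 23 members and below 0 in 10, with a median of 0.06 on the log2 scale; over all genes 51.1% were above 0 and 48.9% below, with a median of 0.0066. Under upper-quartile scaling 19 members were above 0 and 14 below. Their median was then 0.023, beside -0.034 over all genes in the same fit. Both anti-CD226 libraries lay above both isotype libraries in 5 members (15.2%), Rel, Rela, Nfkbie, Chuk and Tnfaip3, beside 13.8% of all genes. Both lay below in 0 members, beside 13% of all genes. With 2 libraries against 2, an exact two-sided permutation test cannot give a p below 0.333 for a single gene.

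Anti-CD226 library 2 often lay at an extreme, in the NF-kB genes as in the table as a whole. It was the highest of the 4 libraries in 16 of the 33 and the lowest in 8, and over all 13010 genes it was the highest in 4811 and the lowest in 4838. The 36 genes together took 0.224% and 0.254% of the signal in anti-CD226 libraries 1 and 2, and 0.220% and 0.218% in isotype libraries 1 and 2. Set against the isotype mean, the median log2 difference of the 33 was 0.06 in library 1 (19 higher) and 0.07 in library 2 (22 higher).

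**Figure D1:**
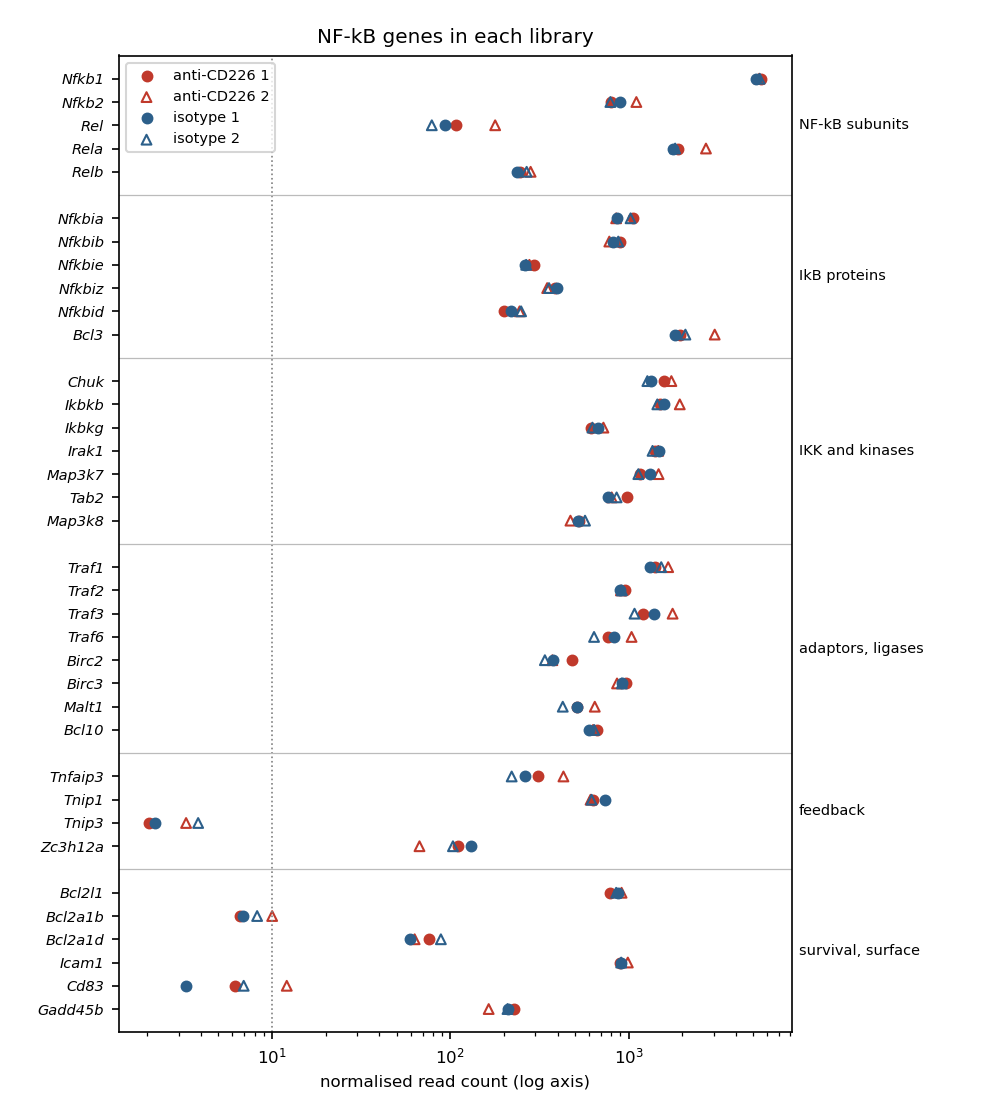
Normalised read count (log axis) of each of the 36 genes in anti-CD226 libraries 1 and 2 (red) and isotype libraries 1 and 2 (blue), grouped by role; the dotted line marks the mean of 10 needed for a test. Rel and Tnfaip3 have both red symbols to the right of both blue ones, with anti-CD226 library 2 farthest out, and most other genes overlap.

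The 5 subunits were all measured well above background, and the least abundant of them had the largest difference. Rel, which encodes c-Rel, a subunit with a transactivation domain best known from lymphocytes, lies at chr11:23736847-23770970 on the minus strand (GRCm38). It had 107 and 179 normalised reads in anti-CD226 libraries 1 and 2, and 93.9 and 78.8 in isotype libraries 1 and 2. Both anti-CD226 values lay above both isotype values, with the gap set mainly by library 2. Group means were 143 ± 50.5 with anti-CD226 and 86.4 ± 10.7 with isotype (SD, n = 2 each), a log2 fold change of 0.68 ± 0.30 (SE). Its 95% interval ran from -0.01 to 1.37, and the unadjusted limma p was 0.053. These values rest on between 85 and 162 estimated reads per library.

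Rela, encoding p65, the main transactivating subunit, lies at chr19:5637483-5648130. It had 1883 and 2712 normalised reads in anti-CD226 libraries 1 and 2, and 1767 and 1823 in isotype libraries 1 and 2. Library 2 stood far above the other 3, which lay close together. The log2 fold change was 0.33 ± 0.21 (SE), with an adjusted p of 0.98 in limma. Nfkb1, whose product p105 is processed to the DNA-binding p50, was the most abundant of the subunits at 5547 and 5392 in anti-CD226 libraries, against 5185 and 5425 in isotype libraries. Its groups overlapped, and the 95% interval of its log2 fold change was -0.31 to 0.40.

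Nfkb2 and Relb encode the pair of the non-canonical route, p100 (the precursor of p52) and RelB. Nfkb2 had 796 and 1105 normalised reads in anti-CD226 libraries 1 and 2, and 891 and 790 in isotype libraries. Relb had 246 and 282 in anti-CD226 libraries and 235 and 268 in isotype libraries. The groups overlapped in both genes, at log2 fold changes of 0.16 and 0.07. Nfkb2 shares 299 exonic bases with Psd on the opposite strand, and without stranded counting the reads of such a pair cannot be told apart. All 5 subunits had a fold change above 0, with a median of 0.16; leaving out anti-CD226 library 2 placed Nfkb2 at -0.07 and Relb at -0.03.

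Divided by transcript length, the subunits kept an order in which neighbours were far apart. Mean values over the 4 libraries were 1309 ± 36.6 normalised reads per kb for Nfkb1, 753 ± 164 for Rela, 285 ± 46.8 for Nfkb2, 117 ± 9.57 for Relb and 15.3 ± 5.92 for Rel (SD, n = 4). No library of one subunit overlapped with the next subunit in this order. The ratio of Rela to Nfkb1, both per kb, was 0.515 and 0.763 in anti-CD226 libraries 1 and 2, and 0.517 and 0.509 in isotype libraries. Anti-CD226 library 1 thus lay with the isotype libraries and library 2 apart.

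The inhibitors split evenly, 3 above 0 and 3 below, with a median log2 fold change of 0.0013. Bcl3, an atypical IkB protein that sits in the nucleus with p50 and p52 and can activate transcription, lies at chr7:19808462-19822770 on the minus strand. It had 1952 and 3036 normalised reads in anti-CD226 libraries 1 and 2, and 1821 and 2080 in isotype libraries 1 and 2. As for Rela, a single library stood out, and anti-CD226 library 1 lay between the isotype libraries. The log2 fold change was 0.32 ± 0.23 (SE; adjusted p 0.98, limma). Per kb, Bcl3 was second among the 36 genes, at 1201 ± 299 (SD, n = 4), and its range overlapped that of Nfkb1.

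Nfkbie, encoding IkB epsilon, had 294 and 278 normalised reads in anti-CD226 libraries and 264 and 267 in isotype libraries. Its groups did not overlap, but the difference was small, at a log2 fold change of 0.11 (95% interval -0.32 to 0.54). Nfkbid, encoding the nuclear inhibitor IkBNS, had 200 and 245 in anti-CD226 libraries and 218 and 250 in isotype libraries. Nfkbia, encoding IkB alpha, the inhibitor that NF-kB induces most directly, averaged 958 ± 151 with anti-CD226 and 944 ± 115 with isotype (SD, n = 2 each). Anti-CD226 library 1 had the highest Nfkbia of the 4 libraries (1065) and library 2 the lowest (851), the opposite order to Rela. Per kb, Nfkbia over Rela was therefore 0.973 and 0.540 in anti-CD226 libraries 1 and 2, and 0.840 and 0.968 in isotype libraries 1 and 2. Nfkbib, encoding IkB beta, averaged 840 ± 85.3 with anti-CD226 and 847 ± 39.4 with isotype. Nfkbiz, encoding the nuclear cofactor IkB zeta, averaged 369 ± 27.4 and 376 ± 26.0 in the same order (SD, n = 2 each).

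**Figure D2:**
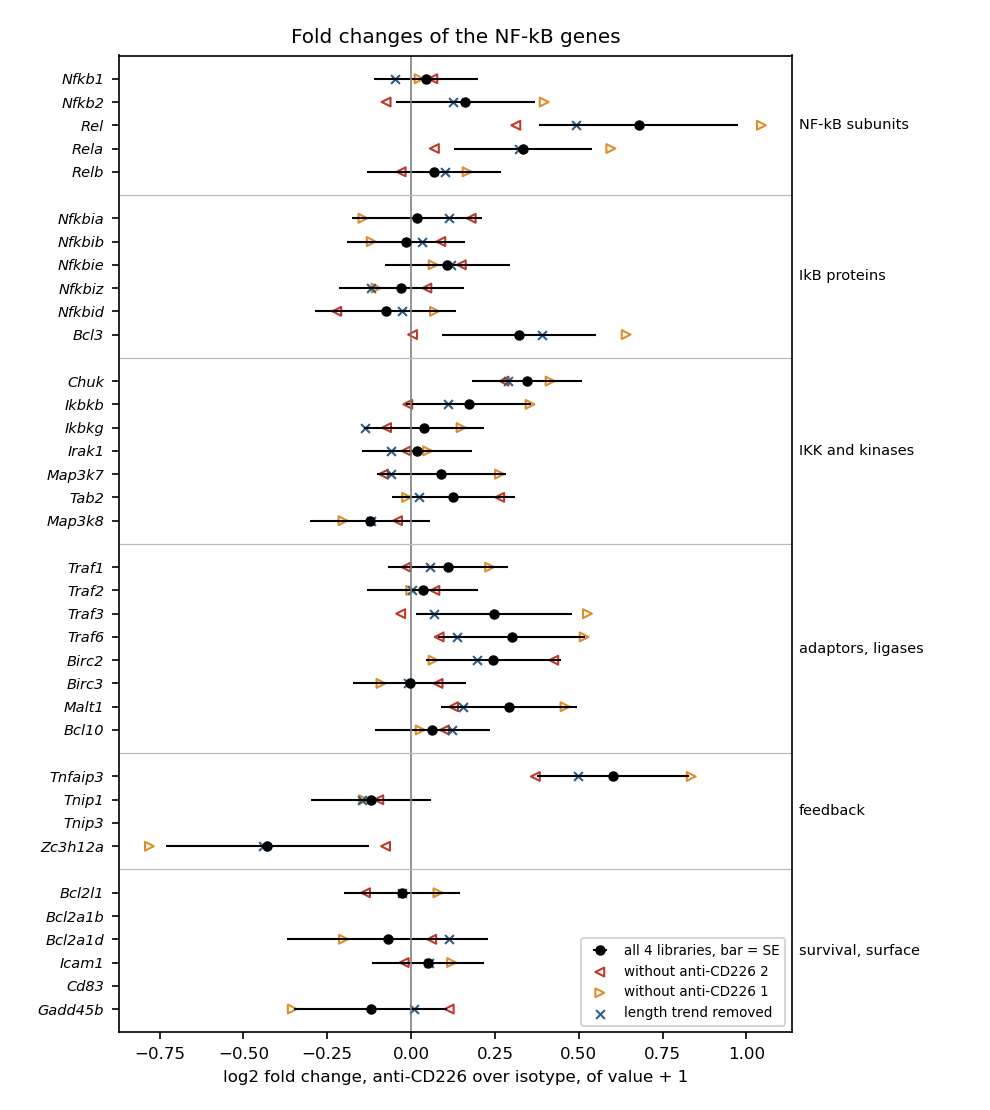
Log2 fold change, anti-CD226 over isotype, of each gene with its SE from limma (black), with the transcript-length trend removed (cross), and leaving out either anti-CD226 library (open triangles). The triangles lie on opposite sides of 0 for many genes, and for Rela and Bcl3 the values without library 2 are 0.07 and 0.0043; Tnip3, Bcl2a1b and Cd83 were not tested.

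Among the 7 kinases and their partners, the groups did not overlap in 1 gene, Chuk. It lay above isotype, a share of 14.3% beside 13.8% of all genes. It encodes IKK alpha, the catalytic subunit that also drives the non-canonical route, and lies at chr19:44073335-44107480 on the minus strand. It had 1578 and 1736 normalised reads in anti-CD226 libraries 1 and 2, and 1332 and 1273 in isotype libraries 1 and 2. The groups were separated by more than the difference within either group. Means were 1657 ± 111 with anti-CD226 and 1302 ± 41.2 with isotype (SD, n = 2 each), and the log2 fold change was 0.35 ± 0.16 (SE; 95% interval -0.03 to 0.73). The unadjusted limma p was 0.068 and the adjusted p 0.98.

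Ikbkb, encoding IKK beta, the catalytic subunit of the canonical route, had 1502 and 1934 normalised reads in anti-CD226 libraries and 1580 and 1448 in isotype libraries. Tab2, an adaptor that binds ubiquitin chains for the kinase TAK1, had 974 and 803 in anti-CD226 libraries and 768 and 856 in isotype libraries. The groups overlapped in both, and the anti-CD226 libraries stood in opposite order. The ratio of Chuk to Ikbkb per kb was 1.07 and 0.917 in anti-CD226 libraries, and 0.861 and 0.899 in isotype libraries. Ikbkg, the regulatory subunit NEMO, averaged 670 ± 72.9 with anti-CD226 and 651 ± 35.1 with isotype. Map3k7, which encodes TAK1, averaged 1314 ± 222 with anti-CD226 and 1229 ± 135 with isotype. Irak1, a kinase below the IL-33 receptor and Toll-like receptors, averaged 1433 ± 44.9 with anti-CD226 and 1417 ± 78.2 with isotype (SD, n = 2 each). Map3k8, the kinase TPL2, was the single gene of the 7 with a fold change below 0, at 528 and 472 in anti-CD226 libraries and 518 and 569 in isotype libraries. The median over the 7 was 0.09.

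The adaptors and ubiquitin ligases had a median log2 fold change of 0.18, with 7 of 8 above 0, and the groups overlapped in all 8. Malt1, the protease and scaffold of the complex with Bcl10, had 513 and 646 normalised reads in anti-CD226 libraries, against 516 and 427 in isotype libraries. Traf6, the ubiquitin ligase used by the IL-33 receptor, had 769 and 1038 in anti-CD226 libraries, against 823 and 640 in isotype libraries. In both genes anti-CD226 library 2 was highest and isotype library 2 lowest; library 1 of the anti-CD226 group was below isotype library 1. Birc2, encoding the ligase cIAP1, had 480 and 374 in anti-CD226 libraries, against 376 and 339 in isotype libraries. Here library 1 was highest. Log2 fold changes were 0.29 ± 0.20 for Malt1, 0.30 ± 0.22 for Traf6 and 0.25 ± 0.20 for Birc2 (SE), with adjusted p-values of 0.98 in limma.

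The other adaptors lay nearer to 0 or varied more. Traf3, which holds the non-canonical route in check, averaged 1481 ± 400 with anti-CD226 and 1234 ± 220 with isotype (SD, n = 2 each), so its difference was smaller than the SD of the anti-CD226 pair. Traf1 averaged 1533 ± 187 with anti-CD226 and 1420 ± 146 with isotype. Traf2 averaged 928 ± 32.9 with anti-CD226 and 906 ± 15.03 with isotype. Birc3, encoding cIAP2 and itself an NF-kB target, averaged 915 ± 76.4 with anti-CD226 and 916 ± 0.18 with isotype. Bcl10, the partner of Malt1, averaged 648 ± 23.02 with anti-CD226 and 620 ± 29.9 with isotype (SD, n = 2 each).

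Tnfaip3 had the smallest p of the 36 genes. It encodes A20, an enzyme that edits ubiquitin chains and shuts down IKK activation, and is a textbook NF-kB target; the gene lies at chr10:19000910-19015657 on the minus strand. It had 312 and 431 normalised reads in anti-CD226 libraries 1 and 2, and 263 and 221 in isotype libraries 1 and 2. Both anti-CD226 libraries were higher than both isotype libraries, with library 2 highest. Means were 371 ± 84.1 with anti-CD226 and 242 ± 29.7 with isotype (SD, n = 2 each). The log2 fold change was 0.60 ± 0.23 (SE; 95% interval 0.08 to 1.13). The unadjusted limma p was 0.029, and the p adjusted over all genes was 0.98.

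The other feedback inhibitors did not share this direction. Zc3h12a, encoding the ribonuclease Regnase-1 that degrades inflammatory transcripts, had 110 and 67.2 normalised reads in anti-CD226 libraries 1 and 2, and 130 and 104 in isotype libraries 1 and 2. Its log2 fold change was -0.43 ± 0.30 (SE), and the groups overlapped. Tnip1, encoding ABIN1, a partner of A20, had 631 and 612 in anti-CD226 libraries and 735 and 620 in isotype libraries. Tnip3, encoding ABIN3, had between 2 and 5 estimated reads in every library, too few for a comparison.

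The survival and surface genes lay close to 0, with a median of -0.05 over the 4 that were tested. Gadd45b, a stress-response gene induced by NF-kB, had 228 and 164 normalised reads in anti-CD226 libraries and 211 and 209 in isotype libraries. Icam1, the adhesion molecule that binds LFA-1, had 897 and 989 in anti-CD226 libraries and 911 and 908 in isotype libraries. Bcl2a1d, one of the genes for the survival protein A1, had 76.0 and 63.1 in anti-CD226 libraries and 59.7 and 88.6 in isotype libraries. The isotype libraries lay inside the anti-CD226 range for Gadd45b and Icam1, and the reverse held for Bcl2a1d. Icam1 shares 511 exonic bases with the antisense gene Gm47079. Bcl2l1, encoding the survival protein Bcl-xL, averaged 849 ± 89.8 with anti-CD226 and 863 ± 16.8 with isotype (SD, n = 2 each). Cd83, a surface marker of activated antigen-presenting cells and lymphocytes, had 6.18 and 12.1 in anti-CD226 libraries and 3.32 and 6.95 in isotype libraries, between 3 and 11 estimated reads, and was not tested.

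Values of the A1 genes cannot be assigned to a single gene with confidence. The coding sequences of Bcl2a1b and Bcl2a1d, taken as the longest open reading frame of each GENCODE M21 transcript, are 519 bases long and differ at 6, an identity of 98.8%. The first 120 bases are shown because they hold 3 of the 6 differences, which are in capitals; a read that covers none of these positions matches both genes.
Bcl2a1b, chromosome 9, coding bases 1 to 120: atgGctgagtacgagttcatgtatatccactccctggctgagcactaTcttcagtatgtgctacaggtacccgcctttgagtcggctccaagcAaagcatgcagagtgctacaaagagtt
Bcl2a1d, chromosome 9, coding bases 1 to 120: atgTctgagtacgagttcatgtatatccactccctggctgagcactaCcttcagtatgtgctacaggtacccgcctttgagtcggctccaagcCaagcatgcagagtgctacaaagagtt

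Bcl2a1b had 6.65 and 10.0 normalised reads in anti-CD226 libraries and 6.85 and 8.27 in isotype libraries, below the mean needed for a test. It also shares 401 exonic bases with Gm29094 on the same strand. How reads were divided among these genes is not given in the sources used here, so their levels are not ranked.

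Transcript length moved with the differences within both groups. Across the 33 tested members, the rank correlation of transcript length with the log2 ratio of anti-CD226 library 2 to library 1 was 0.45, and across 12716 genes with a length it was 0.52. For the log2 ratio of isotype library 2 to library 1 it was -0.69 over the members and -0.38 over all genes, so long transcripts tended to be lower in isotype library 2. These are correlations over genes of the same 4 libraries, and genes are not independent replicates. Length and the group fold change had a rank correlation of 0.49 over the 33 members and 0.43 over all genes. Rel, with a transcript of 7466 bases, is among the longest of the 36. When a smooth trend on length was removed from each library, log2 fold changes were 0.49 for Rel, 0.50 for Tnfaip3, 0.29 for Chuk, 0.32 for Rela and 0.39 for Bcl3. Those of Traf3 and Traf6 were 0.07 and 0.14 after the removal, against 0.25 and 0.30 before it. How far length accounts for any of these differences was not tested.

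**Figure D3:**
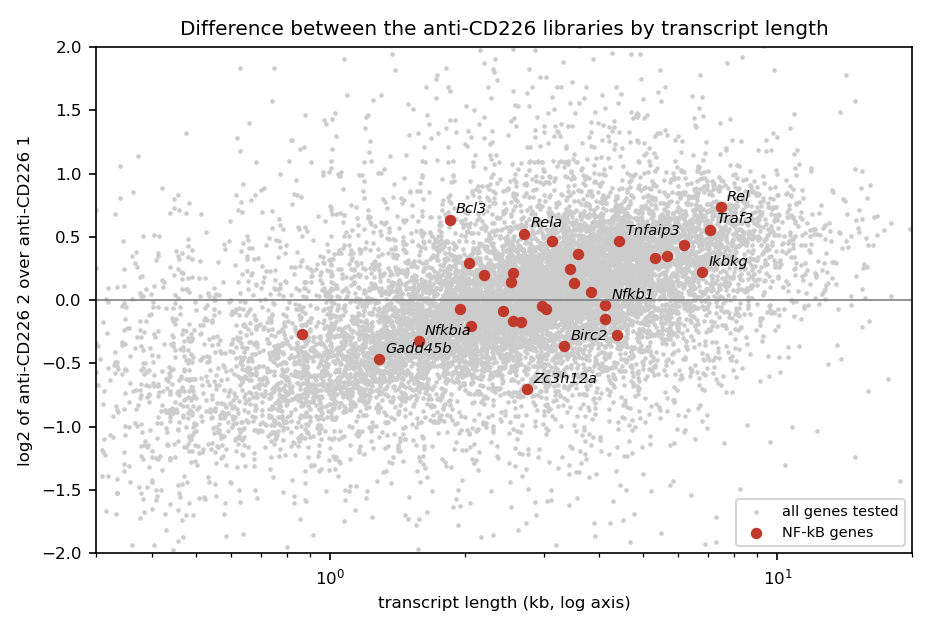
Log2 ratio of anti-CD226 library 2 to anti-CD226 library 1 against transcript length (log axis) for all genes tested (grey) and the 33 tested NF-kB genes (red); 178 of 12716 genes lie outside the axes. Long genes such as Rel and Traf3 lie above 0 and short ones such as Nfkbia and Gadd45b below it, within the trend of all genes; Bcl3 lies above that trend.

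Leaving out a library changed which members passed. Without anti-CD226 library 1, 5 members passed an adjusted p of 0.05 in limma, all higher with anti-CD226, beside 5.76% of all genes in that direction. They were Tnfaip3 (log2 fold change 0.84, adjusted p 0.0076), Rel (1.04, 0.0095), Bcl3 (0.64, 0.010), Rela (0.60, 0.016) and Traf3 (0.53, 0.045). In that fit the lone anti-CD226 library is assumed to vary like the isotype pair. Without anti-CD226 library 2, the log2 fold changes were 0.37 for Tnfaip3, 0.31 for Rel, 0.0043 for Bcl3, 0.07 for Rela and -0.03 for Traf3. Zc3h12a then had -0.08, and 19 members were above 0 and 14 below. Chuk had 0.41 without library 1 and 0.28 without library 2. The sum of macrophage markers was also highest in anti-CD226 library 2 (1882, against 581 in anti-CD226 library 1), mostly from Chil3 and Mmp12. Adgre1, Apoe, Ctss and Itgam were not highest in that library. Itgax and the sum of mast cell and basophil markers were highest in it. The sum of T cell markers was lowest in that library, at 2802. The part of other cell types in the values of anti-CD226 library 2 was not tested. Over all alternatives run, 12 of the 33 members kept the sign of their fold change. They were Rel, Rela, Nfkbie, Bcl3, Chuk, Traf6, Birc2, Malt1, Bcl10 and Tnfaip3 above 0, and Map3k8 and Zc3h12a below it. The filters, variance models and replicate block cannot turn a sign, and Bcl3 kept it at only 0.0043. The same share over all genes was not taken.

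The rest of the pathway was described with 4 lists that hold none of the 36 genes, and no gene of any list passed the adjusted p. Of 19 receptors that signal to NF-kB, 8 were above 0 and 11 below (median -0.08). Both anti-CD226 libraries lay below both isotype libraries in 4 receptors (21.1%) and above in 0, beside 13% and 13.8% of all genes. Il18r1, a subunit of the IL-18 receptor, had 87.5 and 86.0 normalised reads in anti-CD226 libraries and 108 and 126 in isotype libraries. Tnfrsf25, the receptor of TL1A, a cytokine that stimulates ILC2s, had 1427 and 1081 in anti-CD226 libraries and 1453 and 1527 in isotype libraries. Tnfrsf18, which encodes GITR, had 3121 and 2051 in anti-CD226 libraries and 3097 and 3337 in isotype libraries. Il1rl1, the IL-33 receptor, averaged 8673 ± 515 with anti-CD226 and 8612 ± 555 with isotype, and its partner chain Il1rap averaged 232 ± 73.7 and 243 ± 42.2 in the same order (SD, n = 2 each). Tnfrsf4, which encodes OX40, averaged 61.3 ± 3.70 with anti-CD226 and 57.1 ± 12.1 with isotype.

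Of 33 other adaptors and kinases, 21 were above 0 and 12 below (median 0.06); anti-CD226 lay above isotype without overlap in 9 (27.3%, beside 13.8% of all genes) and below in 4 (12.1%, beside 13%). Prkcq, encoding the kinase PKC theta, had 496 and 490 normalised reads in anti-CD226 libraries and 421 and 362 in isotype libraries. Btrc, part of the ubiquitin ligase that marks IkB for destruction, averaged 263 ± 42.8 with anti-CD226 and 204 ± 3.66 with isotype, and Tab3, a relative of Tab2, averaged 195 ± 10.9 and 156 ± 4.89 in the same order (SD, n = 2 each). Of 24 other inhibitors, 13 were above 0 and 11 below (median 0.03). Under upper-quartile scaling 11 were above 0 and 13 below, where the median of all genes was -0.034. Usp7, a deubiquitinase, had 753 and 721 in anti-CD226 libraries and 511 and 585 in isotype libraries, and its unadjusted limma p was 0.041. Itch, a ubiquitin ligase that works with A20, averaged 1576 ± 160 with anti-CD226 and 1269 ± 169 with isotype, and Nlrc5 averaged 695 ± 247 and 505 ± 150 in the same order.

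Of 35 other NF-kB target genes tested, 12 were above 0 and 23 below (median -0.06); without the filter on low values 20 were above 0 and 24 below. Anti-CD226 lay below isotype without overlap in 10 (28.6%, beside 13% of all genes) and above in 5 (14.3%, beside 13.8%). Cd80, a costimulatory ligand, had 2.06 and 7.72 normalised reads in anti-CD226 libraries and 18.8 and 18.5 in isotype libraries; its anti-CD226 value in library 1 was under the worth of 3 reads, and its unadjusted limma p was 0.030. Cxcl3, a chemokine for neutrophils, had 117 and 100.3 in anti-CD226 libraries and 133 and 154 in isotype libraries. Ccnd2, a cyclin of the cell cycle, had 4915 and 5359 in anti-CD226 libraries and 4195 and 4474 in isotype libraries. The difference between this list and the 36 genes was not tested.

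**Figure D4:**
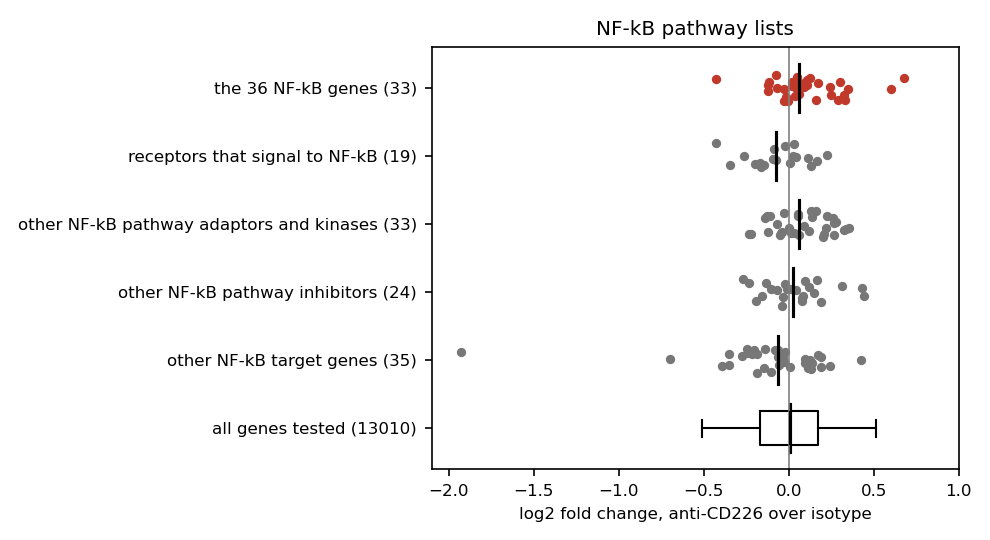
Log2 fold change, anti-CD226 over isotype, of each tested gene of the 36 NF-kB genes (red) and of 4 other pathway lists (grey), with the number tested in brackets and a black bar at the median; the box for all genes tested spans the quartiles, with whiskers at the 5th and 95th percentiles. The medians are 0.06 for the 36 genes, -0.08, 0.06, 0.03 and -0.06 for the lists from top to bottom, and 0.0066 for all genes, all small beside the spread of single genes.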

How the data were processed

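RNA from 4 libraries of cultured ILC2s was sequenced after low-input cDNA synthesis, per the labels' protocols. STAR 2.7.8, Partek 10.0 and DESeq2 (no version) are named in the submitters' processing notes, with build mm10; how reads were counted, against which annotation and with which strand setting, is not given in the sources used here. The authors deposited a normalised signal value per gene and library. Between 73.5% and 75.1% of the values from 0.5 to 1000 steps were whole multiples of a step (tolerance 0.02 of a step). The values are therefore read as scaled estimated counts. A count model was not used, and depth is each total divided by its step. The 3-read limit covers counting error only. Singly listed gene columns, 1060 in number, were checked to be present, and all values to be finite and not negative.

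The test was limma 3.58.1 (R 4.3.3) with a variance trend, on log2(value + 1), two-sided, over the 13010 genes with a mean of 10 or more, with Benjamini-Hochberg adjustment over all of them (2 residual and 5.81 prior degrees of freedom). That scale, used for all fold changes here, understates changes of low genes. The steps were tested on simulated data. GENCODE M21 (GRCm38, which mm10 denotes) gave positions and, for 97.3% of genes, transcript lengths; RefSeq gave promoters. The members and lists were chosen with earlier results of these data known, so no p is adjusted over a list and no list is tested. All 36 genes are named. Values per library are given for the subunits, for the 3 genes of smallest p in each other role group and for genes with an unadjusted p below 0.05; those of Map3k8, Nfkbia, Tnip3, Bcl2a1b and Cd83 were added after being seen. Of each other pathway list the 3 genes of smallest p are named, with Il1rl1, Il1rap and Tnfrsf4. The same rule gave Mmp12, Lyz2, Cd68, Itgax, Cd74 and Ccr7 among the macrophage and dendritic cell markers. Chil3, Csf1r, Ctss, Adgre1, Apoe, Itgam and Mpeg1 were chosen after their values were seen, as were the ILC2 markers Il5, Il2ra, Il13 and Rora. Alternatives varied the pseudocount, filter, scaling, variance model, length correction and replicate block, and left out each library.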

Additional observations from a re-analysis of the deposited data

How the results depend on the processing

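With all 4 libraries, no member passed an adjusted p of 0.05 in limma under any of the pseudocounts, filters, scalings, variance models, length correction or replicate blocks run. The replicate numbers could not be shown to pair the libraries (correlation of deviations -0.24 over genes); with the replicate block 20 genes of the whole table and 0 members passed, and with crossed pairs, an alternative chosen after seeing the data, 61 genes and 0 members. Leaving out a library gave 1633 genes and 5 members without anti-CD226 library 1, and 0 members otherwise, with 53 genes without anti-CD226 library 2 and 12 and 17 without isotype libraries 1 and 2. These fits give the single remaining library the spread of the complete pair. The members' median log2 fold change was 0.056 under total scaling, 0.023 under upper-quartile scaling, 0.039 under quantile scaling, 0.055 with the length trend removed, and 0.047 to 0.077 leaving out a library. In the same order, the median over all genes was -0.00072, -0.034, -0.0031 and 0.00084, and -0.0091 to 0.013 leaving out a library. For the other lists, leaving out a library gave -0.12 to 0.051 for receptors, 0.015 to 0.12 for adaptors and kinases, and -0.014 to 0.11 for inhibitors; targets stood at -0.031 without a filter and -0.10 under upper-quartile scaling. With all libraries kept, 12 of 396 member values turned sign. The filters, variance models and replicate block do not alter a fold change, so their part of the 396 could not turn. Median-of-ratios scaling hardly altered it. The turned values were Nfkbia -0.023, Ikbkg -0.0029, Irak1 -0.024 and Traf2 -0.0060 under upper-quartile scaling, and Irak1 -0.011 under quantile scaling. With the length trend removed they were Nfkb1 -0.047, Nfkbib 0.032, Ikbkg -0.14, Irak1 -0.059, Map3k7 -0.059, Bcl2a1d 0.11 and Gadd45b 0.0087. Leaving out a library turned 29 of 132 member values, in genes whose log2 fold changes ranged as follows: Nfkb2 -0.075 to 0.40, Relb -0.030 to 0.17, Nfkbia -0.14 to 0.18, Nfkbib -0.12 to 0.089, Nfkbiz -0.10 to 0.047, Nfkbid -0.22 to 0.070, Ikbkb -0.010 to 0.35, Ikbkg -0.073 to 0.15, Irak1 -0.039 to 0.074, Map3k7 -0.083 to 0.26, Tab2 -0.013 to 0.26, Traf1 -0.015 to 0.23, Traf2 -0.0013 to 0.071, Traf3 -0.031 to 0.53, Birc3 -0.090 to 0.080, Tnip1 -0.24 to 0.0039, Bcl2l1 -0.14 to 0.080, Bcl2a1d -0.35 to 0.21, Icam1 -0.021 to 0.12 and Gadd45b -0.35 to 0.11. The cause was not tested. Rel, Zc3h12a, Bcl2a1d and the untested members rest on the fewest reads, so their values carry the largest counting error.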
